A study of Homo sapiens with 12 samples.

Results

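The keratin genes KRT5, KRT6A, KRT7, KRT8, KRT14, KRT15, KRT16, KRT17, KRT18 and KRT19 were taken by name from a table of FPKM values, 10 of its 58302 genes, and each had 1 row. FPKM is a fragment count divided by the length of the gene and the total of mapped fragments. Their mRNA was read in 12 libraries from BxPC-3 and CFPAC-1, which are established human pancreatic cancer cell lines, and from a gemcitabine (GEM)-resistant derivative of each, named BxPC-3-GR or CFPAC-1-GR, with 3 replicates per line. Each resistant line was derived from its own parent under long exposure to rising GEM concentrations, so parent and derivative come from the same tumor. Each resistant line is a single derivation, so what belongs to GEM and what belongs to that derivation cannot be told apart. The sample records describe the morphology of BxPC-3-GR as mesenchymal and that of the other lines as epithelial. The records and the methods name different media for the CFPAC-1 lines. The records do not say whether replicates were separate cultures, so p values measure the spread between libraries, which may be technical.

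Keratins form the intermediate filaments of epithelial cells, and every filament pairs a type I protein with a type II protein. KRT8 and KRT18 are the type II and type I partners that all simple epithelia make, and KRT7 (type II) and KRT19 (type I) accompany them in ducts, the pancreatic duct included. KRT5 (type II) with KRT14 or KRT15 (type I) marks the basal layer of stratified epithelia, while KRT6A (type II) with KRT16 or KRT17 (type I) appears there on injury or rapid growth. Basal keratins are not a regular feature of the normal pancreatic duct, and their mRNAs are among those used to describe a basal-like class of pancreatic cancer. KRT5, KRT6A, KRT14, KRT15, KRT16 and KRT17 are called basal keratins below, and KRT7, KRT8, KRT18 and KRT19 simple keratins.

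The type II genes and KRT18 lie on chromosome 12 (KRT5 at chr12:52514575-52520687, KRT8 at chr12:52897187-52949954 and KRT18 at chr12:52948871-52952901, GRCh38), and the other type I genes lie on chromosome 17 (KRT19 at chr17:41523617-41528308). Keratin genes arose by duplication, and parts of their mRNAs are alike over long stretches, which bears on every FPKM given here. The share of the 50-base stretches of a member's transcripts that also occurs in transcripts of another gene was 39.1% for KRT6A, 24.0% for KRT18, 23.8% for KRT14, 18.1% for KRT16, 12.9% for KRT8, 12.2% for KRT17, 3.24% for KRT5, 1.64% for KRT19, 0.408% for KRT7 and 0.311% for KRT15. The following stretches, read from the GRCh38 genome and the GENCODE 29 transcripts on the minus strand unless stated, show the closest copies. Bases 151 to 270 of the KRT6A coding sequence (exon 1, chr12:52492919-52493038) are identical in KRT6B (chr12:52451809-52451928) and KRT6C (chr12:52473468-52473587).
KRT6A, KRT6B and KRT6C: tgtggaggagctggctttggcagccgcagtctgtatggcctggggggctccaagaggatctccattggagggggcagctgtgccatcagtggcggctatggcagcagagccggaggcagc
The longest run without a difference between KRT14 (exon 1, chr17:41586368-41586525) and KRT16 (exon 1, chr17:41612216-41612373) is 158 bases of coding sequence.
KRT14 and KRT16: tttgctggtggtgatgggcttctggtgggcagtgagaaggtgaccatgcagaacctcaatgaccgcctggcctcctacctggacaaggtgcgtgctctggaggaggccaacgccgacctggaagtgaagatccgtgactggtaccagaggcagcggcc
How fragments that match several copies were assigned is not given in the sources used here, and the values of KRT6A, KRT8, KRT14, KRT16, KRT17 and KRT18 are uncertain to that extent. KRT8 and KRT18 also overlap on opposite strands, and the sources do not say if the counting used strand.

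The depth inferred from the smallest FPKM steps lay between 12600000 and 25200000 mapped fragments per library, lowest in replicates 2 and 3 of CFPAC-1. The epithelial markers EPCAM and CDH1 were present in every library (lowest FPKM 53.7 for EPCAM and 18.1 for CDH1). Of 6 leukocyte markers, PTPRC and MS4A1 were listed at 0 in all 12 libraries. CD68 had a mean of at least 1 FPKM in every line, and LYZ and CD14 in both CFPAC-1 lines. The 6 summed to between 38.6 and 48.5 FPKM in CFPAC-1, the highest line, and between 1.65 and 2.02 in BxPC-3-GR, the lowest. The summed FPKM of 8 fibroblast markers lay between 1.04 and 4.14. In the comparisons that include the parental CFPAC-1 libraries, fold changes followed the GC content of genes (Spearman's rho = -0.777 for CFPAC-1-GR vs CFPAC-1 over 12030 genes, against 0.0388 for BxPC-3-GR vs BxPC-3). The members have GC contents between 55.7% (KRT18) and 62.9% (KRT7). Their values after a correction for GC content and gene length are therefore given beside the results of the comparisons that include CFPAC-1. Corrected values of other genes are not given. In CFPAC-1-GR vs CFPAC-1 the correction took the genes called by the criteria below from 3880 to 1042. A member is called significantly differentially expressed (SDE) here if its adjusted p is below 0.05 and its log2FC lies beyond 1 in size. A gene was tested where its mean over the libraries compared reached 1 FPKM, and one that passed only through the group where it is high had to differ, so members are counted where the mean reached 1 FPKM in every group, a rule chosen after seeing the data.

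The 10 keratins together took 0.603 ± 0.0414% (SD, n = 3) of the summed FPKM of all genes in BxPC-3, 0.371 ± 0.0141% in its resistant derivative, 0.986 ± 0.0520% in CFPAC-1 and 0.398 ± 0.0244% in CFPAC-1-GR. Their makeup differed between the lines more than their sum did. Basal keratins held 56.8 ± 0.311% of the members' FPKM in BxPC-3, 24.2 ± 0.275% in BxPC-3-GR and under 1% in the CFPAC-1 lines, with 0.645 ± 0.139% in the parent and 0.738 ± 0.0270% in CFPAC-1-GR (SD, n = 3 each). KRT19 had the highest FPKM of the members in every library and ranked between 16 and 22 among all genes in CFPAC-1 and between 43 and 56 in the other lines. After KRT19, the members with the highest mean FPKM were KRT6A and KRT5 in BxPC-3, KRT7 and KRT17 in BxPC-3-GR, and KRT8 and KRT18 in both CFPAC-1 lines.

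**Figure D1:**
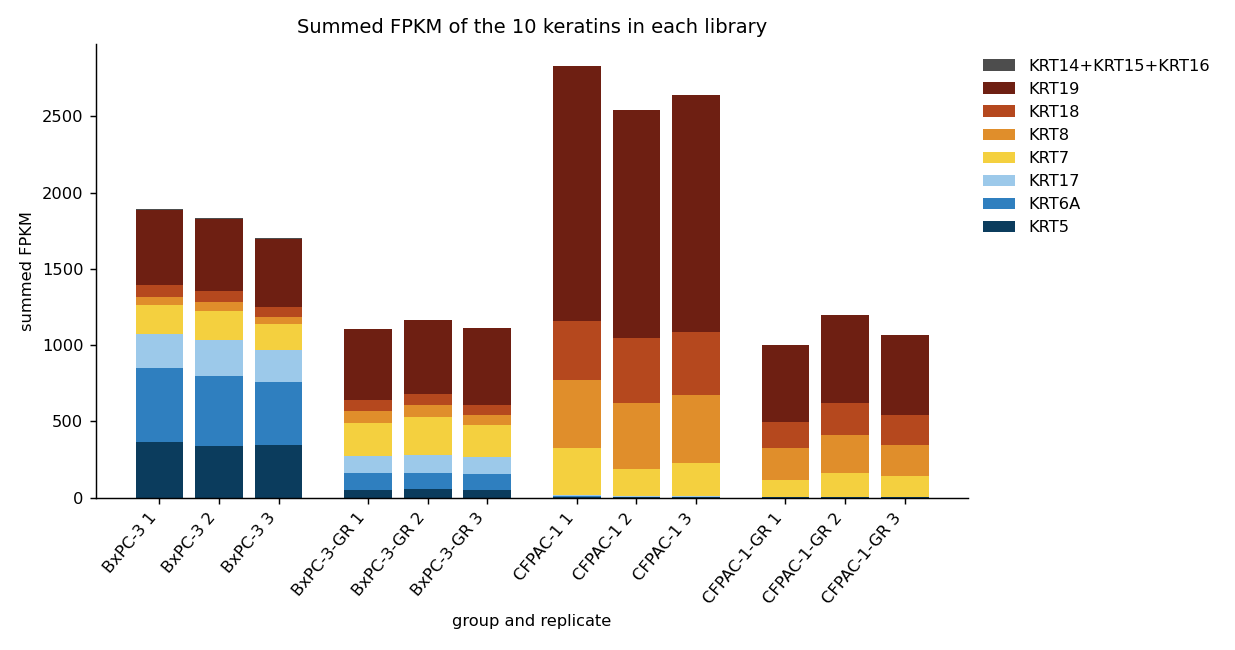
Stacked FPKM of the 10 keratins (vertical axis, summed FPKM) in each library (horizontal axis, group and replicate), with KRT5, KRT6A and KRT17 in blue, simple keratins in yellow to brown and KRT14, KRT15 and KRT16 together in grey. The basal keratins, blue and grey parts together, sum to between 969 and 1078 FPKM in BxPC-3, between 268 and 279 in BxPC-3-GR and at most 22.8 in the CFPAC-1 lines.

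The balance of type I over type II FPKM was 0.740 ± 0.00867 in BxPC-3, 1.45 ± 0.126 in its derivative, 2.94 ± 0.198 in CFPAC-1 and 2.02 ± 0.0824 in CFPAC-1-GR, with KRT19 as the main type I member in each. The FPKM of KRT18 relative to its partner KRT8 lay close to equality in all lines, at 1.34 ± 0.0772 in BxPC-3, 0.913 ± 0.0536 in its derivative, 0.926 ± 0.0458 in CFPAC-1 and 0.868 ± 0.0883 in CFPAC-1-GR. The stratified pair was far from equal, since KRT14 had 0.00549 ± 0.000308 of the FPKM of KRT5 in BxPC-3. The type I partner with an FPKM nearest to that of the basal type II keratins in BxPC-3 was KRT17, at 0.491 ± 0.0258 of KRT6A, while KRT16 had 0.00120 ± 0.000103 of KRT6A. These ratios are of FPKM, which is per length, and carry the uncertainty of shared sequence for each gene.

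The first comparison asks which keratins differed between the parental lines. KRT5, KRT6A and KRT17 were upregulated in BxPC-3 and KRT8, KRT18 and KRT19 in CFPAC-1, while KRT7 did not separate the lines. KRT5 had 362, 340.0 and 347 FPKM in the BxPC-3 replicates and 5.89, 3.43 and 4.06 in those of CFPAC-1. KRT6A had 487, 457 and 411 FPKM in BxPC-3 and 3.83, 2.26 and 1.97 in CFPAC-1. KRT17 had 225, 233 and 207 FPKM in BxPC-3 and 9.27, 4.98 and 5.18 in CFPAC-1. All BxPC-3 libraries lay far above all CFPAC-1 libraries for these genes, and replicate 1 of CFPAC-1 was the highest of its group for each of them. With limma on log2(FPKM + 1), log2FC (CFPAC-1 minus BxPC-3) was -6.03 for KRT5 (SE 0.159, adjusted p = 2.6e-07), -6.97 for KRT6A (SE 0.186, adjusted p = 2.7e-07) and -4.94 for KRT17 (SE 0.211, adjusted p = 1.4e-06). Mean FPKM was 78.4-fold, 168-fold and 34.2-fold lower in CFPAC-1. Once corrected for GC content and length, these log2FC values were -6.71, -7.71 and -5.80.

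The simple keratins ran the other way. KRT8 had 56.3, 59.7 and 49.4 FPKM in BxPC-3 and 444, 433 and 447 in CFPAC-1. KRT18 had 78.8, 74.7 and 67.4 FPKM in BxPC-3 and 391, 421 and 414 in CFPAC-1. KRT19 had 491, 473 and 446 FPKM in BxPC-3 and 1668, 1496 and 1553 in CFPAC-1. No library of BxPC-3 reached the lowest library of CFPAC-1 for any of these genes. Log2FC was 2.98 for KRT8 (SE 0.0789, adjusted p = 2.6e-07), 2.46 for KRT18 (SE 0.0738, adjusted p = 3.7e-07) and 1.74 for KRT19 (SE 0.0674, adjusted p = 9.4e-07). Once corrected for GC content and length, log2FC was 2.52 for KRT8, 1.76 for KRT18 and 0.65 for KRT19, which was then short of the fold criterion. KRT7, the duct keratin of type II, had 186, 190 and 170 FPKM in BxPC-3 and 306, 179 and 213 in CFPAC-1, so the groups overlapped. Its log2FC was 0.32 (95% CI -0.15 to 0.78, adjusted p = 0.16) and turned to -0.66 (adjusted p = 0.020) after the correction.

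In CFPAC-1 vs BxPC-3, 8 members had a mean of 1 FPKM or more in both lines, of which 3 were downregulated (KRT5, KRT6A and KRT17) and 3 upregulated. Of the 8988 genes with such means, 36.3% were called, 19.1% down and 17.1% up. Of all 11842 genes tested, 44.5% were called, 24.7% down and 19.8% up, and 44.6% of the calls were up (56.4% with upper-quartile scaling). The FPKM of the lines did not overlap for 7 of the 8 members, against 85.6% of all genes tested. The median log2FC was 2.10 over the 4 simple members, against -0.10 over all genes. KRT14, a low member that passed the minimum through the BxPC-3 libraries alone, had 2.07, 1.75 and 1.95 FPKM there and 0.424, 0.163 and 0 in CFPAC-1, a log2FC of -1.30 (SE 0.132, adjusted p = 9.2e-05) and of -2.35 after the correction. Its mean over the 6 libraries was 1.06 FPKM, and it was not tested when any library of BxPC-3 was left out. KRT15 lay between 1.06 and 1.23 FPKM in BxPC-3 and between 2.36 and 2.56 in CFPAC-1, a log2FC of 0.68 (adjusted p = 3.6e-05), below the fold criterion. It passed the criterion with a pseudocount of 0.1 (1.03, adjusted p = 3.8e-05) and was at 0.22 (adjusted p = 0.012) after the correction. KRT16 was below the minimum and lay between 0.448 and 0.593 FPKM in BxPC-3 and between 0.891 and 1.17 in CFPAC-1. Unlike the other basal members, KRT15 and KRT16 thus had their lowest parental FPKM in BxPC-3.

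**Figure D2:**
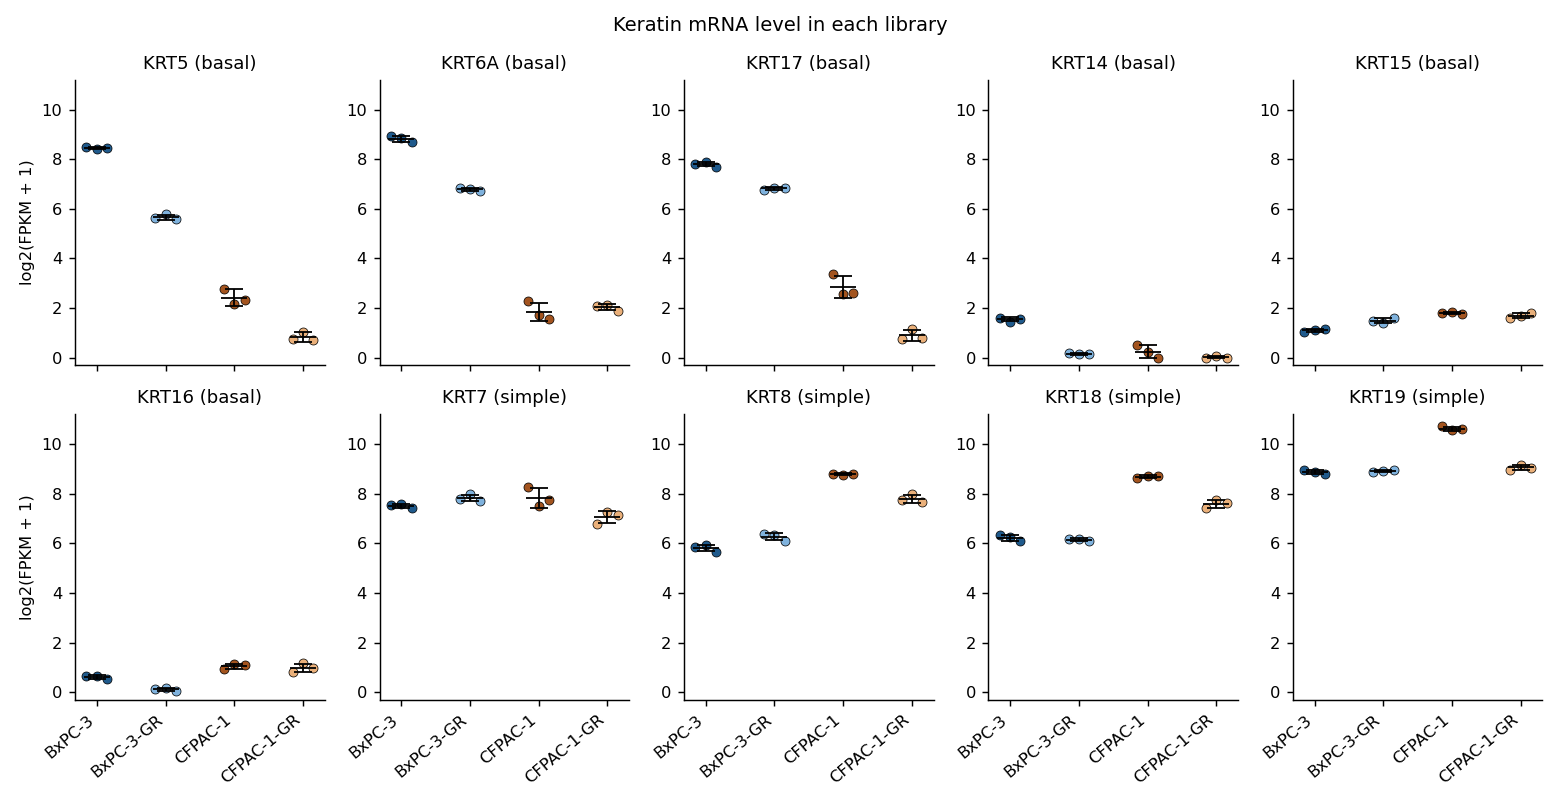
Level of each keratin, as log2(FPKM + 1), in the 12 libraries (points) of the 4 lines, with bars for the mean ± SD of 3 libraries on that scale. KRT5, KRT6A and KRT17 step down from BxPC-3 to BxPC-3-GR to the CFPAC-1 lines, while KRT8 and KRT18 are highest in CFPAC-1.

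The second comparison asks what differed between BxPC-3-GR and BxPC-3. The basal keratins KRT5 and KRT6A were downregulated in BxPC-3-GR, and no member was upregulated. KRT5 had 48.4, 53.9 and 47.1 FPKM in BxPC-3-GR against the 340.0 to 362 of BxPC-3, a mean 7.02-fold lower. Its log2FC was -2.79 (SE 0.0672, adjusted p = 2.7e-06 from limma). KRT6A had 113, 109 and 105 FPKM, a mean 4.14-fold lower, and its log2FC was -2.04 (SE 0.0763, adjusted p = 1.0e-05). For both genes every BxPC-3-GR library lay below every BxPC-3 library by far more than the spread of either group. Since RNA was taken from whole cultures, fewer cells with these keratins and less of their mRNA per cell cannot be told apart.

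The type I keratins of the basal group differed in how far they moved. KRT14 had 0.136, 0.0953 and 0.0967 FPKM in BxPC-3-GR, and its mean was 17.6-fold lower than in BxPC-3. Scaled by joined exon length, this was about 4.69 to 7.82 fragments per library. The length behind the FPKM may be shorter, and the fragments then fewer. Its log2FC was -1.40 (SE 0.0588, adjusted p = 1.6e-05), a value that the pseudocount of 1 makes smaller for so low a gene, and it passed the minimum through the BxPC-3 libraries alone, so its call adds no support. Its mean over the 6 libraries was 1.02 FPKM, and it was not tested when any library of BxPC-3 was left out. KRT17 had 108, 114 and 115 FPKM in BxPC-3-GR, a mean 1.98-fold lower than in BxPC-3. The KRT17 libraries did not overlap, but its log2FC of -0.98 (SE 0.0629, adjusted p = 6.9e-05) was just short of the fold criterion and passed it at -1.02 without replicate 3 of BxPC-3. As a result of these unequal differences, the FPKM of KRT17 relative to KRT6A was 1.03 ± 0.0742 in BxPC-3-GR, against 0.491 in BxPC-3. KRT16 was below the minimum, at 0.0902, 0.118 and 0.0457 FPKM in BxPC-3-GR against 0.448 to 0.593 in BxPC-3. KRT15 was the basal member with a higher FPKM in BxPC-3-GR, at 1.78, 1.62 and 2.0 against 1.06 to 1.23, a log2FC of 0.37 (SE 0.0688, adjusted p = 0.0045) that did not reach the fold criterion.

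The simple keratins of BxPC-3-GR stayed within a narrow range of BxPC-3. KRT8 had 81.6, 79.4 and 68.2 FPKM in BxPC-3-GR, all above BxPC-3, with a log2FC of 0.46 (SE 0.1001, adjusted p = 0.0083). KRT7 had 219, 251 and 209 FPKM, also all above BxPC-3, with a log2FC of 0.31 (SE 0.0862, adjusted p = 0.023). Neither reached the fold criterion. KRT18 had 71.2, 71.0 and 66.4 FPKM, and KRT19 464.8, 484 and 500.3, and for both the groups overlapped. The log2FC was -0.08 for KRT18 (95% CI -0.26 to 0.10, adjusted p = 0.38) and 0.04 for KRT19 (95% CI -0.10 to 0.18, adjusted p = 0.59).

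Of the 8 members with a mean of 1 FPKM or more in both BxPC-3 lines, KRT5 and KRT6A were SDE, where 5.84% of 10739 such genes were called, 2.89% down and 2.95% up. Of all 11710 genes tested, 7.76% were called, 3.62% down and 4.14% up. Groups did not overlap for 6 of the 8, against 66.1% of all genes tested. The median log2FC was 0.17 over the 4 simple members, against -0.05 over all genes. The correction for GC content and length and the scalings by median of ratios and upper quartile ended neither call. The smallest p that an exact 2-sided permutation test can give for 3 libraries against 3 is 0.10, so the calls depend on the variance that limma shares across genes.

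The third comparison asks the same of CFPAC-1-GR and CFPAC-1. The simple keratins KRT18 and KRT19 were downregulated in CFPAC-1-GR, and no member was upregulated. KRT19 had 500.6, 574 and 519 FPKM in CFPAC-1-GR, a mean 2.96-fold lower than in CFPAC-1, with a log2FC of -1.57 (SE 0.0815, adjusted p = 7.3e-06). KRT18 had 171, 211 and 197 FPKM, a mean 2.12-fold lower, with a log2FC of -1.08 (SE 0.0936, adjusted p = 4.2e-05). KRT8 had 213, 252 and 204 FPKM, a mean 1.98-fold lower, with a log2FC of -0.99 (SE 0.0929, adjusted p = 6.3e-05), just short of the fold criterion. For all 3 genes the CFPAC-1-GR libraries lay below every CFPAC-1 library. KRT7 had 109.5, 153 and 139 FPKM, below every CFPAC-1 library, with a log2FC of -0.77 (SE 0.215, adjusted p = 0.013) in a group where replicate 1 of CFPAC-1 stood apart at 306. KRT18 was short of the criterion at -0.997 without replicate 1 of CFPAC-1-GR, and KRT8 passed it at -1.08 without replicate 2.

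KRT5 had 0.683, 1.07 and 0.634 FPKM in CFPAC-1-GR, a mean 5.62-fold lower than in CFPAC-1, with a log2FC of -1.59 (SE 0.177, adjusted p = 0.00015). KRT17 had 0.686, 1.22 and 0.754 FPKM, a mean 7.30-fold lower, with a log2FC of -1.95 (SE 0.226, adjusted p = 0.00017). Both genes met the SDE criteria, but they were below 1 FPKM on average in CFPAC-1-GR and passed the minimum through the CFPAC-1 libraries alone, so their calls add no support. No CFPAC-1-GR library overlapped those of CFPAC-1 for either. KRT6A did not go with them, with 3.28, 3.36 and 2.71 FPKM in CFPAC-1-GR inside the 1.97 to 3.83 of CFPAC-1. The log2FC of KRT6A was 0.19 (95% CI -0.25 to 0.63, adjusted p = 0.37), and it was -0.04 and -0.13 with median-of-ratios and upper-quartile scaling. KRT15 lay between 2.02 and 2.51 FPKM and KRT16 between 0.780 and 1.24 in CFPAC-1-GR, both overlapping CFPAC-1, with log2FC values of -0.10 (95% CI -0.29 to 0.09) and -0.06 (95% CI -0.31 to 0.20). KRT14 was below the minimum, listed at 0 in replicates 1 and 3 of CFPAC-1-GR and in replicate 3 of CFPAC-1, and no fold is given.

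Of the 6 members with a mean of 1 FPKM or more in both CFPAC-1 lines, KRT18 and KRT19 were SDE, where 28.6% of 9999 such genes were called, 13.2% down and 15.5% up. Of all 12051 genes tested, 32.2% were called, 11.7% down and 20.5% up. Groups did not overlap for 4 of the 6 members, against 82.1% of all genes. The median log2FC was -1.03 over the 4 simple members, against 0.13 over all genes. A test against an absolute log2FC of 1 ended the call of KRT18 (adjusted p = 0.75). These calls moved with the treatment of the values. Once corrected for GC content and length, KRT5 (log2FC -1.06, adjusted p = 0.0020) and KRT17 (-1.25, adjusted p = 0.0025) were still SDE, while KRT8, KRT18 and KRT19 had log2FC values of -0.63, -0.56 and -0.62 with adjusted p values of 0.0013, 0.0012 and 0.00032. KRT7 was at 0.08 (adjusted p = 0.77) after it, KRT6A at 0.74 (adjusted p = 0.011), KRT15 at 0.26 (adjusted p = 0.014) and KRT16 at 0.84 (adjusted p = 0.00038). Median-of-ratios and upper-quartile scaling moved the median of all genes from 0.13 to -0.11 and -0.21, and the share of calls that were up from 63.7% to 43.3% and 36.0%. With them KRT7 (-1.07 and -1.20) and KRT8 (-1.29 and -1.42) were SDE as well.

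**Figure D3:**
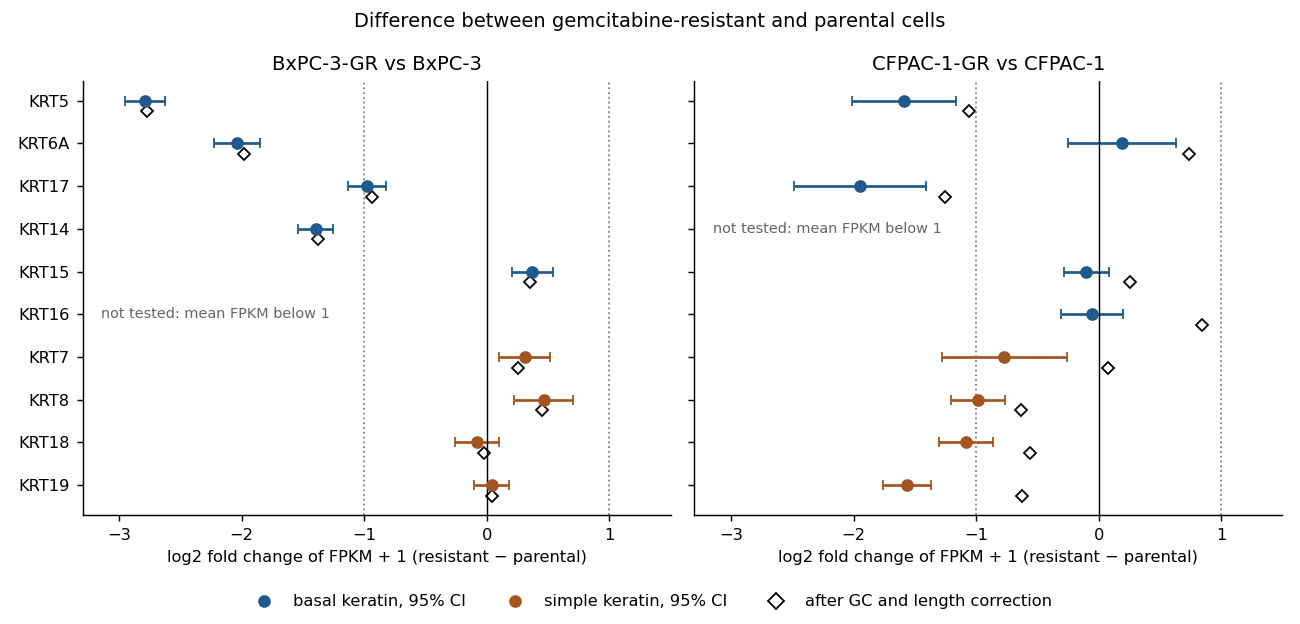
Difference of log2(FPKM + 1) between resistant and parental cells (horizontal axis) for each keratin (vertical axis) in the BxPC-3 and CFPAC-1 lines, with 95% confidence intervals from limma (filled circles), values after the GC content and length correction (open diamonds) and the fold criterion (dotted lines). The diamonds lie near the circles in BxPC-3-GR and to their right in CFPAC-1-GR, where KRT19 moves from -1.57 to -0.62.

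The fourth comparison sets the resistant lines beside each other. KRT5, KRT6A and KRT17 were downregulated in CFPAC-1-GR relative to BxPC-3-GR, with log2FC values of -4.83 (SE 0.108, adjusted p = 2.9e-07), -4.74 (SE 0.0825, adjusted p = 1.2e-07) and -5.91 (SE 0.113, adjusted p = 1.6e-07). KRT8 and KRT18 were upregulated, with log2FC values of 1.53 (SE 0.110, adjusted p = 3.2e-05) and 1.46 (SE 0.0917, adjusted p = 1.8e-05). KRT7 had a log2FC of -0.76 (adjusted p = 0.0026) and KRT15 one of 0.21 (adjusted p = 0.063). KRT19, the member with the highest FPKM, had a log2FC of 0.13 (95% CI -0.04 to 0.31, adjusted p = 0.15), and of -0.05 with median-of-ratios scaling. KRT14 and KRT16 were below the minimum. Of the 6 members with a mean of 1 FPKM or more in both resistant lines, KRT6A, KRT8 and KRT18 were SDE, where 11.5% of 10630 such genes were called. KRT5 and KRT17 passed the minimum through BxPC-3-GR alone. Of all 12330 genes tested, 17.1% were called, 10.3% up and 6.80% down, and 60.3% of the calls were up (48.5% with median-of-ratios scaling). For each of the 6 the groups did not overlap, as for 71.0% of all genes tested. For KRT19 they nearly touched, at 500.6 FPKM in the lowest CFPAC-1-GR library and 500.3 in the highest of BxPC-3-GR. This comparison shares its libraries with the comparisons within each line.

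The order of the lines therefore depended on the keratin. For KRT5 and KRT17 both BxPC-3 lines stood above both CFPAC-1 lines and each parent above its derivative, with no overlap of libraries between neighbors. For KRT6A the lowest pair, CFPAC-1-GR and CFPAC-1, overlapped. For KRT8 both CFPAC-1 lines stood above both BxPC-3 lines, with CFPAC-1 the highest, BxPC-3 the lowest and no overlap. KRT18 and KRT19 also were highest in CFPAC-1 and next in CFPAC-1-GR, and the BxPC-3 lines overlapped for both. For KRT19 the libraries of CFPAC-1-GR and BxPC-3-GR nearly touched, so their order is uncertain. KRT7 had the flattest order, in which CFPAC-1 and BxPC-3-GR overlapped at the top and CFPAC-1-GR was lowest.

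A fit over all 12 libraries tested whether the difference between resistant and parental cells was itself different in the CFPAC-1 and BxPC-3 lines. Of the 6 members with a mean of 1 FPKM or more in every line, 5 were SDE, where 35.9% of 8588 such genes were called. KRT5 and KRT17 were tested too but were below 1 FPKM on average in CFPAC-1-GR. Of all 12210 genes tested, 76.6% had an adjusted p below 0.05 and 38.0% were called, 23.6% up and 14.4% down, and 62.1% of the calls were up (44.0% with median-of-ratios and 39.4% with upper-quartile scaling, which move the median of all genes from 0.22 to -0.06 and -0.14). KRT6A (2.23, SE 0.218, adjusted p = 3.4e-06) and KRT5 (1.20, SE 0.205, adjusted p = 0.00027) had a less negative log2FC in CFPAC-1-GR. The value of KRT5 was 0.47 (adjusted p = 0.16) with a pseudocount of 0.1, and 0.97 and 0.89 with the other scalings. All 4 simple keratins had a more negative log2FC in CFPAC-1-GR, by -1.60 for KRT19 (SE 0.0977, adjusted p = 9.3e-08), -1.45 for KRT8 (SE 0.140, adjusted p = 3.1e-06), -1.08 for KRT7 (SE 0.253, adjusted p = 0.0025) and -1.003 for KRT18 (SE 0.119, adjusted p = 1.6e-05). Once corrected for GC content and length, KRT5 (1.74), KRT6A (2.74) and KRT8 (-1.07) were SDE, and KRT19 (-0.64), KRT18 (-0.52), KRT17 (-0.29), KRT7 (-0.15) and KRT15 (-0.08) were not. Without the correction KRT17 (-0.97, SE 0.257, adjusted p = 0.0051) and KRT15 (-0.47, SE 0.101, adjusted p = 0.0014) were short of the fold criterion. Leaving out single libraries ended the call of KRT18 in 6 of 12 cases (replicate 3 of BxPC-3, replicates 1 and 2 of BxPC-3-GR, replicates 2 and 3 of CFPAC-1 and replicate 1 of CFPAC-1-GR, lowest size -0.92) and that of KRT7 without replicate 1 of CFPAC-1 (-0.86) or of CFPAC-1-GR (-0.94). KRT17 passed the criterion in 5 cases (replicate 2 of BxPC-3, replicate 1 of BxPC-3-GR, replicates 2 and 3 of CFPAC-1 and replicate 2 of CFPAC-1-GR, up to -1.11).

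KRT8 and KRT18 have many processed pseudogenes, which are copies of their mRNA inserted elsewhere in the genome. The table held 147 keratin pseudogenes, of which 50 were named for KRT8 and 67 for KRT18, and 21 had a mean of at least 1 FPKM in some line. The 50 KRT8 pseudogenes summed to 91.2 ± 4.24 FPKM in BxPC-3, 114 ± 3.02 in its derivative, 728 ± 39.1 in CFPAC-1 and 315 ± 12.5 in CFPAC-1-GR (SD, n = 3 each). Their summed FPKM exceeded that of KRT8 itself in each line. KRT8P45, which was not the highest of them, had 106 ± 10.3 FPKM in CFPAC-1. Scaled back by joined exon length, which may differ from the length behind the FPKM, they held about 22.8% to 25.9% of the fragments of KRT8 and its pseudogenes in the group means. The 67 KRT18 pseudogenes summed to 14.6 ± 0.859, 12.9 ± 0.871, 101 ± 7.74 and 38.9 ± 4.60 FPKM in the same order, and held between 6.90% and 8.95% of their family's fragments. The summed pseudogenes of KRT8 and KRT18 differed between the lines in the same direction as their genes. Single pseudogenes did not all do so. KRT8P12 had 2.30 FPKM in BxPC-3 and 1.41 in BxPC-3-GR, where KRT8 was higher. For CFPAC-1-GR vs CFPAC-1 the log2 ratio of mean FPKM times joined exon length was -0.98 for KRT8 alone and -1.04 with its pseudogenes. For KRT18 this ratio was -1.08 alone and -1.11 with its pseudogenes. KRT17P3 was the KRT17 pseudogene with at least 1 FPKM, at 3.15 ± 0.424 in BxPC-3, and was listed at 0 in all CFPAC-1 libraries.

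**Figure D4:**
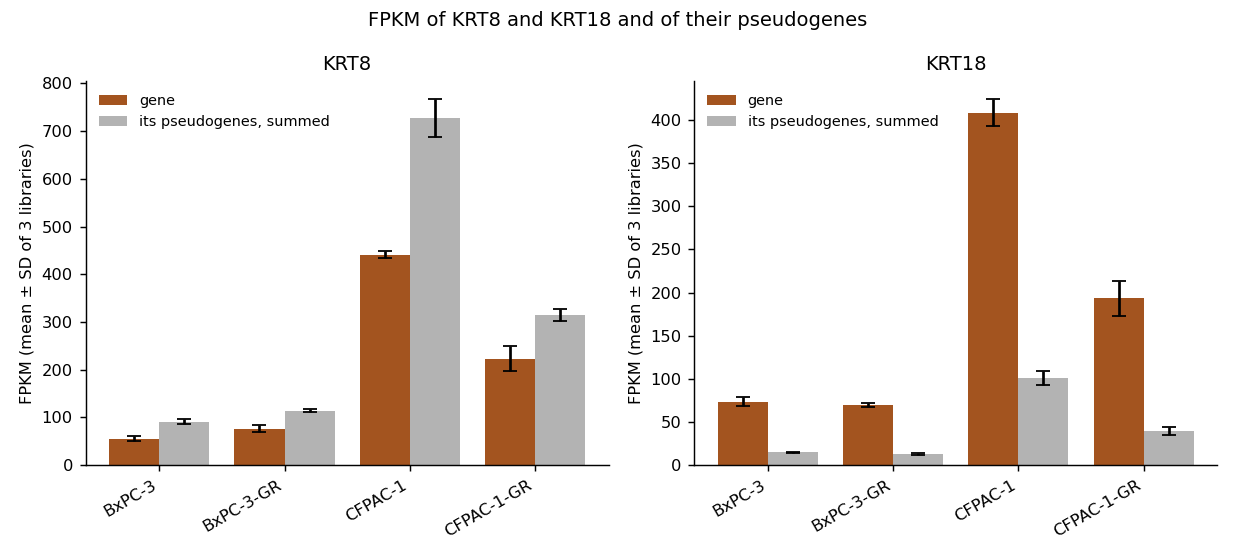
Mean FPKM ± SD of 3 libraries (vertical axis) of KRT8 and KRT18 and of the summed FPKM of the pseudogenes named for each, in the 4 lines. The KRT8 pseudogenes reach 728 FPKM in CFPAC-1 against 441 for KRT8, and both are lower in CFPAC-1-GR.

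Apart from KRT8 and KRT18, which overlap each other, the genes that overlap a member were low. KRT86, a hair keratin gene on the same strand as KRT7 whose locus overlaps it, had 2.33 FPKM in CFPAC-1, 0.956 in CFPAC-1-GR and at most 0.0402 in the BxPC-3 lines. KRT7-AS, the antisense gene, reached at most 0.515 FPKM in any library. MIR6510, within KRT15, had means between 1.03 and 1.32 FPKM. KRT87P was listed at 0 in all libraries.

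Of the 45 other keratin genes, 8 had a mean of at least 1 FPKM in some line and 20 were listed at 0 in all 12 libraries. KRT6B and KRT6C, the close copies of KRT6A shown above, went with it in BxPC-3-GR. Of the 50-base stretches of KRT6A, 35.2% also occur in KRT6C and 28.5% in KRT6B. How shared fragments were assigned is not given, so the values of both copies are uncertain to that extent. Whether their decreases are separate from that of KRT6A was not tested. KRT6C was 6.74 ± 0.404 FPKM in BxPC-3 and 1.38 ± 0.0958 in BxPC-3-GR (log2FC -1.70, SE 0.0619, adjusted p = 9.1e-06), and KRT6B was 2.72 ± 0.487 and 0.754 ± 0.0913 (log2FC -1.08, SE 0.102, adjusted p = 0.00028). Both were downregulated and no other keratin outside the members was SDE in that comparison, where 6 were tested. KRT6B was below 1 FPKM in BxPC-3-GR and passed the minimum through BxPC-3 alone, so its call adds no support. KRT13, a keratin of stratified mucosa, was the other keratin with an SDE decrease in CFPAC-1-GR, from 2.02 ± 0.399 to 0.177 ± 0.00603 FPKM (log2FC -1.35, SE 0.101, adjusted p = 2.2e-05). It too passed the minimum through the parent alone. Between the parental lines KRT6B, KRT6C and KRT13 (log2FC -1.86, -2.89 and -2.48) were downregulated in CFPAC-1, and KRT4, KRT10, KRT80, KRT81 and KRT86 (2.35, 1.22, 2.47, 2.19 and 1.68) were upregulated. KRT6B and KRT6C were below 1 FPKM on average in CFPAC-1, and KRT81 and KRT86 in BxPC-3, so the calls of these genes add no support.

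Genes of the structures that anchor keratin filaments, desmosomes and hemidesmosomes, were read from a list of 24. In BxPC-3-GR, 20 were tested and DSC2, a desmosomal cadherin, was the single SDE gene, at 2.35 ± 0.180 FPKM in BxPC-3 and 8.79 ± 0.407 in BxPC-3-GR (log2FC 1.55, adjusted p = 1.3e-05), where 7.76% of all genes were called. In CFPAC-1-GR, 17 were tested, 6 were up and 2 down, where 20.5% of all genes were up and 11.7% down, among them DST (2.64), DSG2 (1.77), EVPL (-1.22) and the keratin linker PLEC (-1.19). These values are without the GC content and length correction, and DST was below 1 FPKM on average in CFPAC-1. The median log2FC of the list was -0.17 for the BxPC-3 lines and 0.32 for the CFPAC-1 lines, against -0.05 and 0.13 over all genes. Between the parental lines 11 of 20 were down in CFPAC-1 and 2 up, against 24.7% down and 19.8% up of all genes. The desmosomal genes PKP1 (36.9 ± 3.80 FPKM in BxPC-3, 0.655 ± 0.0914 in CFPAC-1) and DSC3 (19.4 ± 1.71 and 0.101 ± 0.00598) had the largest decreases of the list. JUP and EVPL had the largest increases (log2FC 1.59 and 1.19). Between the resistant lines 10 of 20 were down in CFPAC-1-GR and none up, against 6.80% and 10.3% of all genes, PKP1 (-4.46) and COL17A1 (-4.26) the most. PKP1, DSC3 and DST were below 1 FPKM on average in CFPAC-1, and PKP1 also in CFPAC-1-GR (0.290). In these comparisons they passed the minimum through the BxPC-3 lines alone, so their calls add no support. The counts between the lines include such genes.

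Of 27 transcription factors known to act on keratin genes, 18 were tested in BxPC-3-GR and 3 were SDE, against 7.76% of all genes. SOX2 rose from 7.90 ± 0.247 to 74.4 ± 3.85 FPKM (log2FC 3.08, SE 0.0581, adjusted p = 1.3e-06) and ELF3 from 3.96 ± 0.219 to 24.9 ± 2.88 (log2FC 2.38), while FOSL1, a subunit of AP-1, fell from 30.7 ± 2.80 to 8.12 ± 2.81 (log2FC -1.85, SE 0.246, adjusted p = 0.0011). TP63, a regulator of KRT5 and KRT14 in basal cells, was looked up after its values were seen. It had 13.2, 14.99 and 16.5 FPKM in BxPC-3 and 13.6, 12.6 and 13.8 in BxPC-3-GR. These groups overlapped, with a log2FC of -0.15 (95% CI -0.36 to 0.07, adjusted p = 0.20). Any part of TP63 in the keratin differences was not tested. In the CFPAC-1 lines TP63 was at 0.0719 ± 0.0138 and 0.130 ± 0.0303 FPKM, and between the parental lines its log2FC was -3.89 (SE 0.0839, adjusted p = 1.5e-07), the largest decrease of the list beside SNAI2 (-3.52), with ELF3 (3.29) as the largest increase and 6 up and 7 down of 21 tested (19.8% and 24.7% of all genes). In CFPAC-1-GR 22 were tested, 5 up and 2 down, against 20.5% and 11.7% of all genes, with EHF (2.46), GRHL2 (1.46), FOSL1 (-2.05) and JUNB (-1.18) the largest, all without the GC content and length correction. The median of the list was 0.32 for the BxPC-3 lines and 0.24 for the CFPAC-1 lines. Between the resistant lines 5 were up and 6 down of 22, against 10.3% and 6.80% of all genes, TFAP2C (3.02), GATA3 (2.17), TP63 (-3.66) and JUNB (-2.40) the most. TFAP2C (0.0230 FPKM) and GATA3 (0.326) were below 1 FPKM on average in BxPC-3-GR, and TP63 in both CFPAC-1 lines. Each passed the minimum there through the group where it was high, so its calls add no support. The counts between the lines include such genes.

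VIM, the intermediate filament of mesenchymal cells, had 5.51, 6.995 and 7.25 FPKM in BxPC-3 and 0.686, 0.861 and 0.891 in BxPC-3-GR. It was thus lower in the line whose morphology is recorded as mesenchymal (log2FC -2.06, SE 0.105, adjusted p = 2.9e-05). VIM was below 1 FPKM in BxPC-3-GR and passed the minimum through the BxPC-3 libraries alone, so its call there adds no support. CDH1 had 46.1, 31.4 and 51.6 FPKM in BxPC-3 and 48.2, 55.2 and 32.5 in BxPC-3-GR, so the groups overlapped (log2FC 0.07, 95% CI -0.54 to 0.68). VIM was the single SDE gene of 6 other intermediate filament genes tested there, and in CFPAC-1-GR 2 of 7 were down (11.7% of all genes), VIM from 126 ± 18.1 to 57.9 ± 9.41 FPKM (log2FC -1.11, adjusted p = 0.00038) and LMNA from 53.5 ± 3.60 to 24.8 ± 1.22 (log2FC -1.08, adjusted p = 1.9e-05). Both CFPAC-1-GR values are near the fold criterion and without the GC content and length correction. CFPAC-1, the parent with the lower KRT5, KRT6A and KRT17 and the higher KRT8 and KRT18, also had the higher VIM (log2FC 4.06, SE 0.138, adjusted p = 5.7e-07). The summed FPKM of 6 leukocyte markers came for the most part from CD68, LYZ and CD14. This sum lay between 38.6 and 48.5 in CFPAC-1 and between 15.05 and 18.2 in CFPAC-1-GR. In BxPC-3 it lay between 3.21 and 4.45, and in BxPC-3-GR between 1.65 and 2.02. PTPRC and MS4A1 were at 0 in every library. The 7 ductal markers summed to between 103 and 118 FPKM in BxPC-3, 115 and 163 in its derivative, 163 and 180 in CFPAC-1, and 208 and 211 in its derivative. The 4 endothelial and 5 acinar markers summed to at most 0.911 and 0.901. The part of these differences in the keratin results was not tested.

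Across the 12 libraries the pattern of each member was set beside that of all 12210 genes whose mean reached 1 FPKM. Among the members, KRT5, KRT6A and KRT17 followed each other (Pearson's r of log2(FPKM + 1) between 0.957 and 0.975), as did KRT8 and KRT18 (r = 0.982), while KRT6A and KRT8 ran opposite (r = -0.951). KRT7 followed no member closely (highest r = 0.465, with KRT17). Outside the members the most alike gene was IL1B for KRT5 (r = 0.992), LPXN for KRT6A (0.998), TOMM34 for KRT17 (0.997), MFN2 for KRT14 (0.981) and BCAS4 for KRT15 (0.976). For the simple keratins it was RPSAP15 for KRT7 (0.933), PRRX2 for KRT8 (0.997), TBXAS1 for KRT18 (0.997) and RPL13 for KRT19 (0.998). These values describe 12 libraries in 4 lines that share tissue of origin, depth and, for CFPAC-1, the trend with GC content, and they rest mostly on the differences between lines.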

How the data were processed

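Total RNA of 12 libraries was sequenced by the authors on an Illumina NovaSeq. The authors deposited FPKM values per gene, made with GRCh38 and Ensembl release 91, so no counts were used. The submitters' processing notes name Trimmomatic 0.27, FastQC 0.10.1 and TopHat2 2.0.8. The counting program and its use of strand are not given in the sources used here. The test planned for counts was replaced by limma 3.58.1 in R 4.3.3 on log2(FPKM + 1), which understates the changes of low genes. Tested were genes whose mean reached 1 FPKM over the libraries fitted, and the adjusted p is Benjamini-Hochberg over all of them. Genes outside the members were not held to 1 FPKM in every group. Calls of those below it in a group add no support.

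Each pair of lines was fitted on its 6 libraries, and the difference of responses on all 12. The GC content and length correction subtracted a spline with 5 degrees of freedom from the log ratios. Gene positions, transcripts and GC contents came from GENCODE 29, which held 58039 of the genes. Depth was inferred from whole multiples of the smallest FPKM steps, which 58.7% to 69.5% of low values met within a tolerance of 0.05. No count test was run, since the depth is approximate. Low members such as KRT14 and KRT16 are limited most by depth.

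The members and gene lists were chosen with earlier results of these data known. Named were all 10 members, other keratins and pseudogenes whose mean reached 1 FPKM in some line, genes that overlap a member, the most alike gene, and of each list up to 2 called genes per direction and comparison with the largest changes and no overlap. Of the pseudogenes, those that a result turns on are named. A few items that the rule would name are not reported here. The fits were tested on simulated data. Alternatives were pseudocount, filter, scaling, gene type, block, trend, a test against an absolute log2FC of 1, a common fit and each library left out. Figures were drawn with matplotlib 3.10.9.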

Additional observations from a re-analysis of the deposited data

Results flagged for a closer look

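The difference between GEM-resistant and parental cells was tested for its own difference between the lines, and all 8 keratins tested had an adjusted p below 0.05 from limma over all 12 libraries, as had 76.6% of the 12210 genes tested. As log2FC in CFPAC-1-GR minus log2FC in BxPC-3-GR, the values were 2.23 for KRT6A, 1.20 for KRT5, -0.47 for KRT15, -0.97 for KRT17, -1.003 for KRT18, -1.08 for KRT7, -1.45 for KRT8 and -1.60 for KRT19. KRT6A thus had the less negative value in the CFPAC-1 lines, where its FPKM was low throughout, and the simple keratins the more negative one. The value of KRT5 was 0.47 (adjusted p = 0.16) with a pseudocount of 0.1 and 0.97 and 0.89 with median-of-ratios and upper-quartile scaling, and its mean FPKM was 7.02-fold lower in BxPC-3-GR than in BxPC-3 and 5.62-fold lower in CFPAC-1-GR than in CFPAC-1. After the GC content and length correction the values were 2.74 for KRT6A, 1.74 for KRT5, -1.07 for KRT8, -0.64 for KRT19 and -0.52 for KRT18 with an adjusted p below 0.05, and -0.29 for KRT17, -0.15 for KRT7 and -0.08 for KRT15 without.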

How the results depend on the processing

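With each library left out in turn, every count of SDE members or of SDE genes stayed within 1.5 times its value. KRT14 fell below the minimum without any 1 library of BxPC-3, in both comparisons that include them, and SDE members were then 2 in BxPC-3-GR (3 without replicate 3, where KRT17 was called) and 6 between the parents. With a mean of 1 FPKM or more required in every group, which was chosen after seeing the data, SDE members were 2, 2, 6, 3 and 5 in place of 3, 4, 7, 5 and 6 (BxPC-3-GR, CFPAC-1-GR, the parents, the resistant lines and the difference of responses). All genes called ranged from 849 to 965 in BxPC-3-GR, from 3614 to 3991 in CFPAC-1-GR, from 5127 to 5320 between the parents, from 2072 to 2170 between the resistant lines and from 4427 to 4748 for the difference of responses. The log2FC of KRT16 in CFPAC-1-GR ranged from -0.117 to 0.0221, the latter without replicate 1 of CFPAC-1-GR. After the GC content and length correction, alone and with the replicate block, SDE members were 2 in CFPAC-1-GR and 3 for the difference of responses. SDE genes were then 1042 and 1046 in CFPAC-1-GR, 3143 and 3140 between the parents, and 2243 and 2239 for the difference. The same correction turned the log2FC of KRT7 (0.0772), KRT15 (0.257) and KRT16 (0.845) in CFPAC-1-GR and of KRT7 between the parents (-0.657). Scaling turned KRT6A in CFPAC-1-GR (-0.0363 and -0.130) and KRT19 between the resistant lines (-0.0476). The test against an absolute log2FC of 1 gave 380, 2059, 1265 and 2631 SDE genes in BxPC-3-GR, CFPAC-1-GR, between the resistant lines and for the difference, and 3 SDE members for the difference, and it ended the calls of KRT18 in CFPAC-1-GR (adjusted p = 0.75) and of KRT14 between the parents (adjusted p = 0.085). A pseudocount of 0.1 gave 1429 SDE genes in BxPC-3-GR. Of protein-coding FPKM, the members took 0.775%, 0.498%, 1.47% and 0.552% (the BxPC-3 parent and derivative, then those of CFPAC-1). The basal share was 53.7%, 21.8%, 0.493% and 0.561% with pseudogenes added to their genes, an alternative chosen after seeing the data, and 0.532% in CFPAC-1-GR without KRT15. The causes were not tested.

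Libraries with the same replicate number did not deviate together (correlations between -0.134 and 0.0895), so the numbers name samples only. With the replicate number as a block, SDE genes were 908 in BxPC-3-GR, 3883 in CFPAC-1-GR, 5279 between the parents, 2118 between the resistant lines and 4644 for the difference, and the SDE members were 3, 4, 7, 5 and 6 as without it.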
